A study of Mus musculus with 9 samples.

Results

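The 10 genes described here encode enzymes that hydroxylate and crosslink collagen. They are the lysyl oxidase genes Lox, Loxl1, Loxl2, Loxl3 and Loxl4, the lysyl hydroxylase genes Plod1, Plod2 and Plod3, and the prolyl 4-hydroxylase alpha subunit genes P4ha1 and P4ha2. They were listed by name, with earlier results of these data known, and all 10 were found among the 29915 rows of the count table. Poly(A)-selected RNA was sequenced from mouse embryonic fibroblasts (MEFs), adherent cells cultured from mouse embryos. The WT group held 4 libraries of 1 wild-type line and the mutator group 5 libraries of 1 line whose genotype the labels give as mutator, both untreated and harvested 48 h after seeding. The libraries are technical replicates from wells of these lines, so every p-value measures the spread between wells. Genotype and other properties of the 2 lines cannot be told apart. The labels name no allele. The name is known in mouse genetics from strains with a proofreading-deficient Polg, the mitochondrial DNA polymerase gene, and gene counts do not show such an allele. Levels are given in CPM, a gene's count scaled by edgeR to the size of its library, as mean ± SD with n = 4 for WT and n = 5 for mutator. Polg RNA had a WT level of 95.9 ± 2.49 CPM, against 102 ± 1.89 CPM in mutator, and the direction of this small difference turned with a trend over GC content and transcript length removed (log2 fold change -0.22).

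Collagen chains are modified before and after they leave the cell. In the endoplasmic reticulum, prolyl 4-hydroxylases hydroxylate prolines, which stabilises the triple helix, and lysyl hydroxylases hydroxylate lysines, which later carry sugars or enter crosslinks. These hydroxylases need iron, oxygen, alpha-ketoglutarate and ascorbate. Outside the cell, the copper-dependent lysyl oxidases convert lysines and hydroxylysines of collagen and elastin to aldehydes, which react to form the covalent crosslinks of fibrils. Known targets of the hypoxia-inducible factor HIF-1 include Lox, Plod2, P4ha1 and P4ha2, and this list is not complete for the family.

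Library depth ran from 26341230 to 36238653 counts in WT and from 32045662 to 49511365 in mutator. The background of the comparison was high. With edgeR's quasi-likelihood test and a Benjamini-Hochberg adjusted p under 0.05, 79.9% of the 13345 genes tested passed, 40.7% as higher and 39.2% as lower in mutator. Genes of some chromosomes were shifted as a block, so each fold change below was also taken relative to the median log2 fold change of its chromosome. The fibroblast marker list was led by Vim, Col1a1, Col1a2 and S100a4 in both groups, with 6 of its 9 genes tested. Its summed level was 3257 to 3419 CPM in WT and 8586 to 9700 CPM in mutator, and 4 genes were higher and Pdgfra lower. The fibroblast markers Thy1, Dcn and Fap were at or near 0, with 0, 9 and 17 counts over all WT libraries and 20, 5 and 36 over all mutator libraries.

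Of the marker lists for other cell types, the epithelial list and the chondrocyte and osteoblast list shifted most in absolute CPM. In fold, the low skeletal muscle sum fell by more than the chondrocyte and osteoblast sum. The epithelial list summed to 30.3 to 31.8 CPM in WT and 160 to 178 CPM in mutator (1 gene of 6 higher, Cdh1 lower). Nearly all of it was Krt19, which was 5.81-fold higher and at 170 ± 7.30 CPM in mutator stood at the level of Loxl2, while Krt5, Krt14, Cldn4 and Epcam were at or near 0. The chondrocyte and osteoblast list fell in sum from 91.1 to 98.1 CPM in WT to 56.0 to 59.2 CPM in mutator, mostly Runx2. Of its 7 genes 2 were lower and 1 was higher, with Sp7 near 0. The higher gene was Col2a1, which rose 5.82-fold, from 1.39 ± 0.245 to 8.08 ± 0.679 CPM. The adipocyte list summed to 35.1 to 37.8 CPM and 30.7 to 34.6 CPM, with 1 of 5 lower and Plin1 and Lep at 0. The macrophage list reached 2.44 to 2.74 CPM and 3.69 to 4.54 CPM, with 2 of 6 higher and Adgre1 at 0. Skeletal muscle markers summed to 2.25 to 3.19 CPM and 0.340 to 0.513 CPM, with 1 of 6 lower and Myod1, Myf5 and Ckm at 0. Endothelial markers summed to 0.685 to 1.20 CPM and 0.293 to 0.531 CPM, with none of 6 called and Tie1 and Emcn at 0. The part of these levels in the results below was not tested, and in bulk RNA fewer cells of a type and less RNA per cell cannot be told apart.

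RNA of 9 of the 10 enzyme genes was higher in the mutator line and RNA of Loxl4 was lower. All 10 passed the filter on low counts and the test. The test was also passed by 79.9% of all genes tested, 40.7% as higher and 39.2% as lower in mutator. The median log2 fold change over the 10 genes was 1.33, against 0.01 over all genes tested. A change of at least 2-fold upward was found in 6 of them (Lox, Loxl1, Loxl2, Loxl3, Plod2 and P4ha2), against 11.3% of all genes tested. None was lower by 2-fold or more, against 6.53%. These counts depended on the reference: relative to chromosome medians 4 were at least 2-fold higher (Loxl1 and Plod2 were not), and with a trend over GC content and transcript length removed 5 were (Loxl1 was not) and Loxl4 was at least 2-fold lower. For none of the 10 genes did WT and mutator libraries overlap in level, which also held for 71.9% of all genes tested (36.4% with mutator above WT). Relative to the chromosome medians 9 were again higher and 1 lower, against 79.5% of genes called in either direction. With the GC and length trend removed, 8 were higher, 1 was lower and Plod1 did not pass, against 83.1% of genes called. The highest fold changes were in lysyl oxidase genes and the lowest rise was in Plod1.

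**Figure D1:**
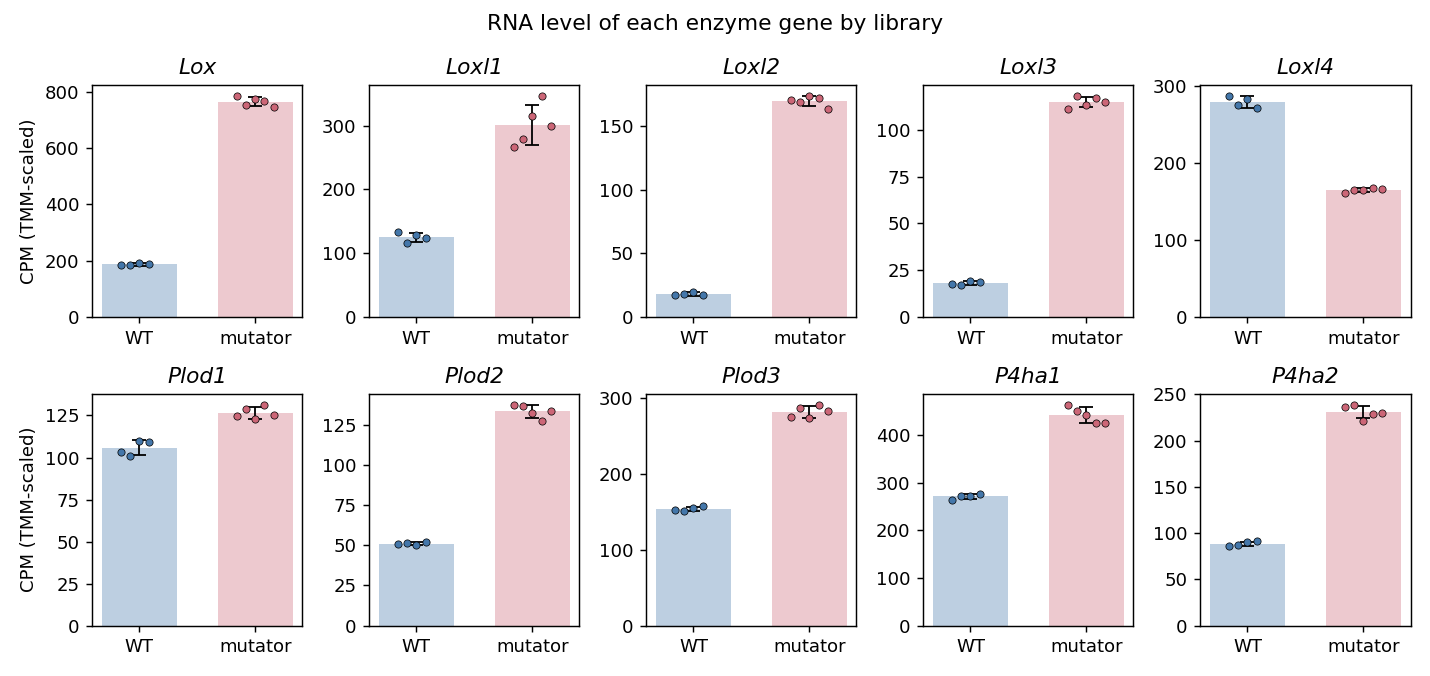
RNA level in CPM (TMM-scaled, y axis from 0) of the 10 enzyme genes in the 4 WT and 5 mutator libraries. Points are libraries, bars are group means and error bars are SD; every mutator library lies above every WT library except for Loxl4, where every one lies below.

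Among the lysyl oxidases, the 5 genes ran in opposite directions. Lox (GRCm38 chromosome 18, 52516067 to 52529867, minus strand) encodes the founding member of the family, which is secreted as a proenzyme and crosslinks fibrillar collagens and elastin. Its level was 183, 183, 191 and 189 CPM in WT replicates 1 to 4 and 786, 756, 774, 768 and 746 CPM in mutator replicates 1 to 5. Libraries within a group were close to each other, and the groups lay far apart. Lox was thus 4.10-fold higher in mutator, with a log2 fold change of 2.04 ± 0.024 (SE, edgeR adjusted p = 3.64e-21).

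Loxl2 and Loxl3 changed from low to moderate levels. Loxl2 (chromosome 14, 69609068 to 69695834, plus strand) encodes an oxidase with scavenger receptor domains that acts on basement membrane collagen IV. WT libraries held 17.4, 17.8, 19.8 and 16.8 CPM of Loxl2, and mutator libraries 171, 169, 173, 172 and 163 CPM. This was the highest fold change of the 10 genes, 9.46-fold, with a log2 value of 3.24 ± 0.039 (SE, edgeR adjusted p = 3.39e-21). Loxl3 (chromosome 6, 83034173 to 83052562, plus strand) encodes a close relative of Loxl2 that is needed for palate and spine development in mice. Its WT libraries held 17.4, 17.1, 19.3 and 18.4 CPM and its mutator libraries 111, 118, 113, 117 and 115 CPM. The change was 6.38-fold, with a log2 value of 2.67 ± 0.037 (SE, edgeR adjusted p = 2.56e-20). Of the merged exons of Loxl3, 13.1% overlap the gene Htra2 on the opposite strand. Htra2, a mitochondrial protease gene, differed 1.23-fold, with 80.4 ± 1.69 CPM in WT against 98.6 ± 3.49 CPM in mutator, and was lower in mutator (log2 fold change -0.12) with a trend over GC content and transcript length removed. The strand setting of the counting is not given in the sources used here, so reads over such overlaps could not be assigned.

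Loxl1 (chromosome 9, 58287738 to 58313186, minus strand) encodes the oxidase that is tied to elastic fibre upkeep in mice. It had 132, 116, 129 and 123 CPM in WT against 267, 279, 316, 347 and 299 CPM in mutator. The mutator wells spread more for Loxl1 than for any other of the 10 genes, with a coefficient of variation of 10.4%. The other 9 genes had 1.60 to 3.76% in mutator. The groups still did not overlap, and Loxl1 was 2.41-fold higher (log2 fold change 1.27 ± 0.061, SE, edgeR adjusted p = 1.02e-12). Chromosome 9 had a median log2 fold change of 0.40, and relative to it Loxl1 was at 0.88 ± 0.064 (SE). With the GC and length trend removed it was at 0.80 ± 0.064 (SE).

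Loxl4 (chromosome 19, 42593982 to 42612813, minus strand), a further oxidase with scavenger receptor domains, went the other way. Its WT libraries held 288, 276, 284 and 272 CPM and its mutator libraries 161, 165, 165, 168 and 166 CPM. All mutator wells lay close together and below all WT wells. Loxl4 was 1.70-fold lower, with a log2 fold change of -0.76 ± 0.023 (SE, edgeR adjusted p = 1.35e-15), at -0.81 relative to its chromosome and at -1.11 with the GC and length trend removed. Over all genes tested, 9.67% had a lower log2 fold change.

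The lysyl hydroxylase genes all rose, by unequal amounts. Plod2 (chromosome 9, 92542223 to 92608428, plus strand) encodes the enzyme that hydroxylates lysines in collagen telopeptides, which directs crosslinks to the hydroxylysine-derived type. It had 50.5, 51.4, 50.1 and 52.2 CPM in WT against 137, 136, 132, 127 and 134 CPM in mutator. Neither group had an outlying well. The rise was 2.61-fold (log2 fold change 1.38 ± 0.029, SE, edgeR adjusted p = 9.4e-18), and 0.99 ± 0.027 (SE) on the log2 scale relative to chromosome 9.

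Plod3 (chromosome 5, 136987019 to 136996648, plus strand) encodes the lysyl hydroxylase that also carries glycosyltransferase activity toward hydroxylysine. Its level was 153, 152, 155 and 158 CPM in WT and 275, 287, 274, 292 and 283 CPM in mutator, 1.83-fold higher with a log2 fold change of 0.87 ± 0.025 (SE), and at 0.50 ± 0.025 (SE) with the GC and length trend removed. Of its merged exons, 16.1% overlap Znhit1 on the opposite strand, whose own level was 36.6 ± 0.970 CPM in WT against 36.8 ± 1.81 CPM in mutator. Plod1 (chromosome 4, 147909753 to 147936767, minus strand) encodes the hydroxylase of helical lysines whose loss in humans causes a form of Ehlers-Danlos syndrome. It had 103, 101, 110 and 109 CPM in WT against 124, 129, 123, 131 and 125 CPM in mutator. The gap between the groups was wider than the range within either. Its rise of 1.20-fold (log2 fold change 0.26 ± 0.030, SE, edgeR adjusted p = 2.9e-07) was the smallest of the 9. This value depended on the reference used. It was 0.63 ± 0.030 (SE) relative to chromosome 4, whose median was -0.36, and 0.02 ± 0.030 (SE, edgeR adjusted p = 0.583) once a trend over GC content and transcript length was removed.

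**Figure D2:**
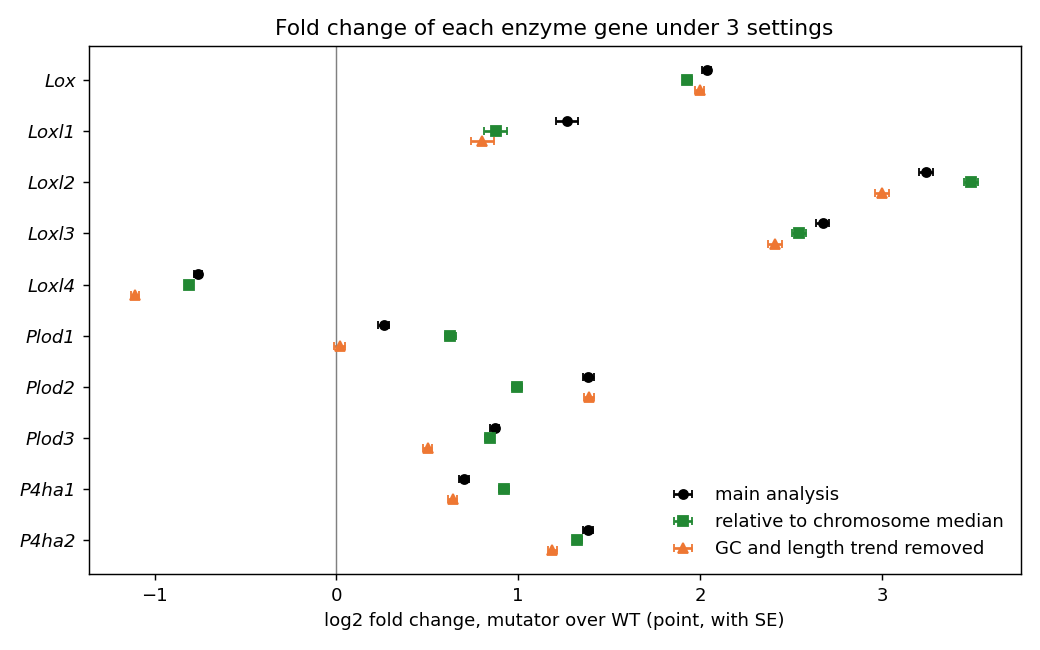
Log2 fold change of mutator over WT (x axis, with SE) for each enzyme gene, as tested, relative to the median of its chromosome, and with a trend over GC content and transcript length removed. Loxl4 lies below 0 under each setting and Plod1 moves between 0.02 and 0.63.

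Both prolyl 4-hydroxylase alpha subunit genes rose. The alpha subunits carry the catalytic site and form tetramers with the beta subunit, protein disulfide isomerase, encoded by P4hb. P4ha1 (chromosome 10, 59323296 to 59373304, plus strand), the major alpha subunit in most cells, had 264, 271, 271 and 276 CPM in WT against 463, 451, 442, 424 and 425 CPM in mutator. The lowest mutator well lay 1.54-fold above the highest WT well. P4ha1 was 1.63-fold higher (log2 fold change 0.70 ± 0.027, SE, edgeR adjusted p = 4.97e-14), and at 0.92 relative to chromosome 10, whose median was -0.21. P4ha2 (chromosome 11, 54100095 to 54131665, plus strand) had 86.2, 86.9, 89.9 and 91.2 CPM in WT against 236, 239, 222, 229 and 230 CPM in mutator. Its rise was 2.61-fold (log2 fold change 1.38 ± 0.028, SE, edgeR adjusted p = 3.92e-18). P4hb itself rose 1.05-fold, from 1264 ± 22.3 to 1325 ± 20.2 CPM (edgeR adjusted p = 0.00952); relative to its chromosome it did not pass (log2 0.01) and with the GC and length trend removed it was lower (-0.17). The less studied alpha subunit gene P4ha3 rose 5.44-fold, from 4.87 ± 0.172 to 26.5 ± 0.392 CPM.

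RefSeq promoter sequences (GRCm38.p6) matched 5 of the 10 genes, Loxl4, P4ha1, P4ha2, Plod1 and Plod3. The 250 bases before the RefSeq start are shown for P4ha1 and P4ha2, which rose, and for Loxl4, which fell. Those of Plod1 and Plod3, which also rose, were searched but are not shown. The RefSeq start of P4ha1 is the gene start given above. That of P4ha2, 54100924, is also the start of a GENCODE transcript but lies 829 bases inside the gene span given above, which begins with another transcript; its window overlaps no GENCODE exon. That of Loxl4 lies 7 bases inside its span. Each is printed 5′ to 3′ on the strand of its gene. Capitals mark the core of the hypoxia response element, searched as ACGTG and GCGTG on both strands, so that CACGT and CACGC mark the other strand.
P4ha1 (chr10:59323046-59323295, plus strand): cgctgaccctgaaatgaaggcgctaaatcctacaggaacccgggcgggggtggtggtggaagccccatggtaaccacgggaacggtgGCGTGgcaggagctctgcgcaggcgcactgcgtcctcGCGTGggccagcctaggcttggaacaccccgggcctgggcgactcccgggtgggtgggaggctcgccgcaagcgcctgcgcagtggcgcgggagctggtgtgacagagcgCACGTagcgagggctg
P4ha2 (chr11:54100674-54100923, plus strand): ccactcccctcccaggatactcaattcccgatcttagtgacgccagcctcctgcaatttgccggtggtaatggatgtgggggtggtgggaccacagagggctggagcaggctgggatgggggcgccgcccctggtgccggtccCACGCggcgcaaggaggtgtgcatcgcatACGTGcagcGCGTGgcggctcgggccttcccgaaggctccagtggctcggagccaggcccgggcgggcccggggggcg
Loxl4 (chr19:42612807-42613056, minus strand): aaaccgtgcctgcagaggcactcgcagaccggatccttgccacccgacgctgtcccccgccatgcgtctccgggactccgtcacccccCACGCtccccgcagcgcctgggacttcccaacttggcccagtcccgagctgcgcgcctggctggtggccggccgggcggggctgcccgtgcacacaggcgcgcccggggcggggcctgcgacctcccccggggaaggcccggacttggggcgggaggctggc
The core was found 3 times in P4ha1, at 163, 126 and 16 bases before the RefSeq start, and 3 times in P4ha2, at 107, 78 and 69 bases. Loxl4 held 1 match, at 162 bases, Plod1 held 1 and Plod3 held 4. Of the 250 bases of the Plod3 window, 208 lie in GENCODE exons. Of all 32851 promoter windows of this length, 38.6% held at least 1 match, 16.6% held ACGTG and 28.2% held GCGTG. The windows of the enzyme genes had a GC content from 55.6% (Plod3) to 76.0% (Loxl4), and no share was taken over windows of like GC content. P4ha1, P4ha2 and Plod3 held both forms, and Loxl4 and Plod1 held GCGTG alone. No matches in these windows shared bases. A match describes the letters in the window and does not show that a factor binds there.

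**Figure D3:**
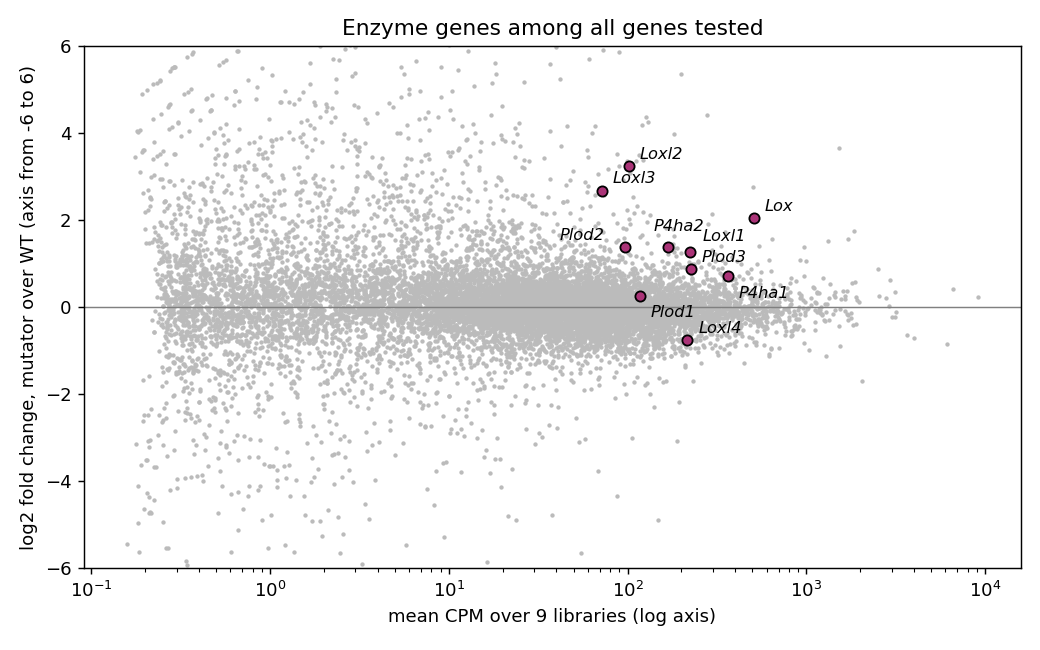
Log2 fold change of mutator over WT against mean CPM over the 9 libraries (log axis) for all 13345 genes tested (grey) and the 10 enzyme genes (coloured). The axis ends at 6 in either direction, which leaves out 185 genes; Loxl2 is the highest of the enzyme genes at 3.24 and Loxl4 the lowest at -0.76.

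To compare levels between genes, CPM was divided by the merged exon length of each gene in kilobases. In WT, Loxl4 had the highest level of the 10 genes, 74.8 ± 1.94 CPM per kb, ahead of P4ha1 at 65.8 ± 1.19 and Plod3 at 47.1 ± 0.871 CPM per kb. Lox, Loxl1 and P4ha2 followed at 37.9 to 39.1 CPM per kb, and their neighbours in that order overlapped between libraries. Plod1 stood at 29.3 and Plod2 at 13.8 CPM per kb. Loxl3 (4.40) and Loxl2 (3.32) came last. Among the 12259 tested genes with a known length, 30.6% had a WT level per kb no higher than that of Loxl2.

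The order changed in the mutator line, where Lox came first. It reached 160 ± 3.26 CPM per kb, a level that 97.3% of genes did not exceed. P4ha1 (107 ± 4.03 CPM per kb) came next, then P4ha2 (98.8 ± 2.90), Loxl1 (91.5 ± 9.55) and Plod3 (86.0 ± 2.32). Loxl1 overlapped between libraries with P4ha1, P4ha2 and Plod3. Its highest library (105 CPM per kb) lay above the lowest of P4ha1 (103 CPM per kb). Loxl4 was sixth of 10 at 44.1 ± 0.705 CPM per kb. Plod2 (35.9 ± 1.08) and Plod1 (35.1 ± 0.955) overlapped, whereas Plod1 was above Plod2 in every WT library. Loxl2 and Loxl3 closed the order at 31.4 ± 0.730 and 28.0 ± 0.661 CPM per kb, and 80.3% of genes had a mutator level no higher than that of Loxl2. The place of P4ha2 depended on the length used. Its merged exons span 2339 bases in the basic annotation and its longest transcript in the full annotation 3060, and per kb of the latter it had 28.9 ± 0.777 CPM in WT, the same place, and 75.5 ± 2.22 CPM in mutator, below Loxl1 and Plod3. With that length Loxl2 (31.9 ± 0.742) also passed Plod1 (30.9 ± 0.841 CPM per kb) in mutator, with overlap.

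The make-up of each family therefore differed between the lines. Loxl4 took 46.9 ± 0.691% of the lysyl oxidase sum per kb in WT and 12.4 ± 0.294% in mutator. Lox took 24.5 ± 0.685% in WT and 45.1 ± 1.5% in mutator, while the Loxl1 shares, 23.8 ± 0.805% and 25.7 ± 1.94%, overlapped between the groups. Loxl2 and Loxl3 had 2.08% and 2.76% in WT and 8.83% and 7.90% in mutator. The summed lysyl oxidase level was 160 ± 4.29 CPM per kb in WT and 355 ± 10.6 CPM per kb in mutator.

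Shares within the hydroxylase families moved less. Plod3 held 52.2 ± 0.346% of the lysyl hydroxylase sum in WT and 54.8 ± 0.641% in mutator. The Plod1 share was 32.5 ± 0.705% in WT and 22.3 ± 0.282% in mutator, and the Plod2 share was 15.3 ± 0.381% and 22.9 ± 0.875%. Among the alpha subunits of prolyl 4-hydroxylase, P4ha1 held 62.2 ± 0.299% in WT and 49.3 ± 0.828% in mutator, P4ha2 35.8 ± 0.372% and 45.5 ± 0.785%, and P4ha3 1.95 ± 0.0935% and 5.18 ± 0.197%. With the longest transcript as length, P4ha2 held 29.5% in WT and 38.6% in mutator and P4ha1 68.4% and 55.8%. For each of these genes the shares per merged exon length of the groups did not overlap. No test was made of shares, which sum over the chosen genes.

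**Figure D4:**
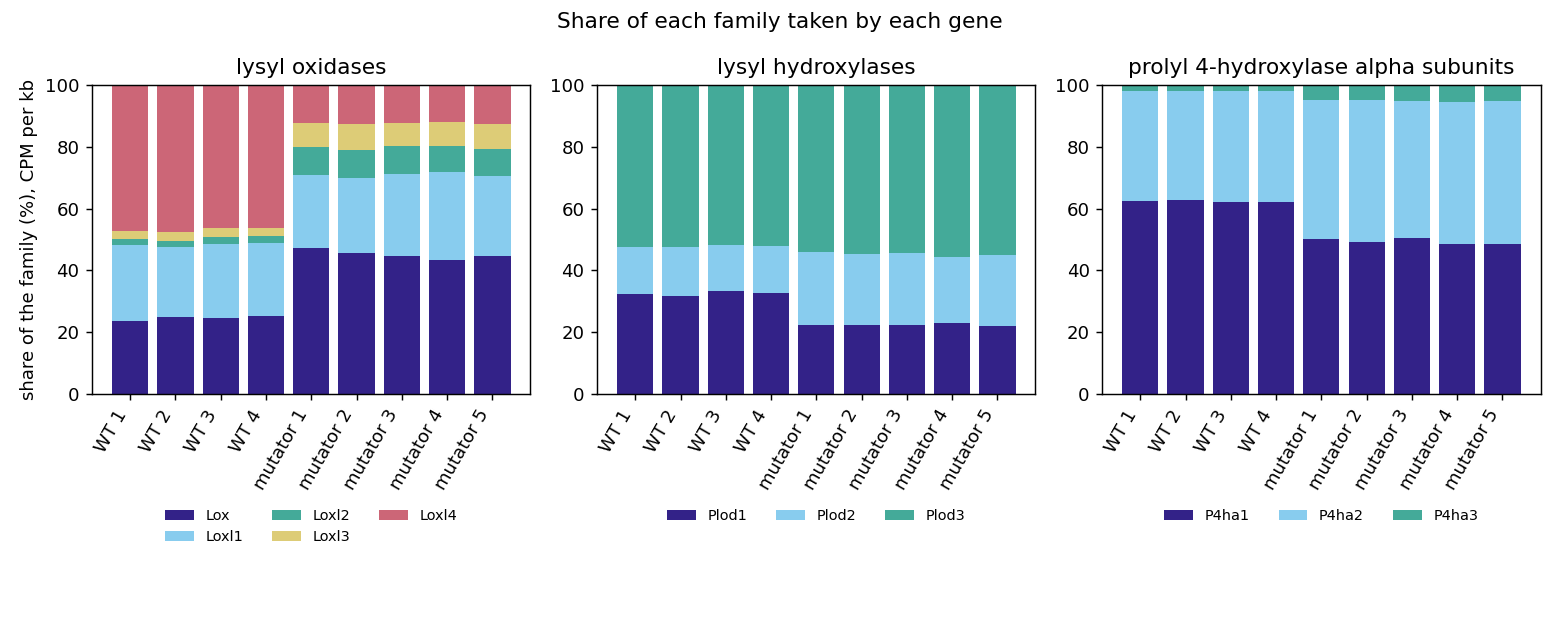
Share of each family (y axis, percent of summed CPM per kb) taken by each gene in each of the 9 libraries, for lysyl oxidases, lysyl hydroxylases and prolyl 4-hydroxylase alpha subunits. Loxl4 is the largest oxidase share in the WT libraries and Lox in the mutator libraries.

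Genes that work with these enzymes mostly rose as well, by less. Of 8 partners and other prolyl hydroxylases, 6 were higher and 1 lower, with a median log2 fold change of 0.63. The complex that adds the 3-hydroxyl group to collagen prolines was mixed. Crtap rose 1.70-fold and Ppib, encoding cyclophilin B, 1.53-fold, while the catalytic subunit gene P3h1 had 58.9 ± 0.788 CPM in WT against 57.4 ± 2.68 CPM in mutator and did not pass (log2 fold change -0.04, edgeR adjusted p = 0.351). P3h2, another prolyl 3-hydroxylase gene, fell 13.7-fold, from 17.5 ± 1.19 to 1.27 ± 0.15 CPM. All 7 tested collagen chaperones, glycosyltransferases and export factors rose (median 0.44). Fkbp14 was 2.25-fold, Fkbp9 1.43-fold and Fkbp10 1.39-fold higher; FKBP65, the product of Fkbp10, assists lysyl hydroxylation of telopeptides. Serpinh1, encoding the collagen chaperone HSP47, rose 1.25-fold and Colgalt1, the galactosyltransferase gene, 1.28-fold. Serpinh1 did not pass with the GC and length trend removed (log2 fold change 0.03), Fkbp10 was at 0.14 there against 0.47 as tested, Fkbp9 at 0.34 against 0.51 and Colgalt1 at 0.09 against 0.36. Crtap and Ppib lie on chromosome 9 and were at 0.38 and 0.22 relative to it, against 0.77 and 0.61 as tested. P3h1 was higher relative to its chromosome (0.33) and lower with that trend removed (-0.36).

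Genes for removal of the collagen propeptides were measured in 5 of 8 cases, with 4 higher, Adamts2 lower and a median of 0.93. Tll1 rose 7.83-fold, from 1.88 ± 0.242 to 14.8 ± 1.05 CPM, Adamts14 6.54-fold and Pcolce2 1.90-fold. Adamts2, the main N-propeptidase gene of skin, fell 1.41-fold (log2 fold change -0.49, and -0.84 with the GC and length trend removed). Pcolce2 was at 0.54 on the log2 scale relative to its chromosome, against 0.93 as tested. Bmp1, the C-propeptidase gene whose product also activates the Lox proenzyme, is listed with 0 counts in every library. Of 7 tested fibril and crosslink modulators, 5 rose and 2 fell (median 0.88). The proteoglycan gene Bgn rose 2.94-fold, from 819 ± 17.5 to 2408 ± 66.7 CPM. Efemp2, encoding fibulin-4, which brings Lox to elastin, rose 1.84-fold. Tgm2, encoding a transglutaminase that crosslinks proteins by a different bond, fell 2.30-fold, and Fbln5, encoding fibulin-5, fell 1.25-fold.

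Of the 8 tested substrates, 6 rose and 2 fell, with a median log2 fold change of 2.15, above the 1.33 of the enzymes. Col1a2, encoding a chain of collagen I, was 12.6-fold higher, at 205 ± 8.72 CPM in WT against 2586 ± 104 CPM in mutator. Its partner chain Col1a1 was 3.38-fold higher, at 793 ± 49.0 and 2685 ± 262 CPM. Col5a3 rose 10.9-fold and Col3a1 10.2-fold. Col5a2 and Col11a1, both chains of fibrils in which collagen V and XI are minor parts, were 1.18-fold and 1.75-fold lower; Col11a1 lies on chromosome 3 and did not pass relative to it (log2 fold change -0.07), and Col5a2 was at -0.45 with the GC and length trend removed against -0.24 as tested. Eln, the elastin gene, had 2 counts over all WT libraries and 2 over all mutator libraries and was not tested.

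Supply genes showed no common direction. For copper and ascorbate, 1 of 4 tested genes rose and 1 fell. The copper importer gene Slc31a1 fell 1.76-fold, from 122 ± 3.56 to 69.1 ± 1.52 CPM, and the ascorbate transporter gene Slc23a2 rose 1.26-fold. Atp7a, the pump that loads copper onto secreted enzymes, did not pass (log2 fold change -0.07, edgeR adjusted p = 0.108), nor did the copper chaperone gene Atox1 (-0.06, edgeR adjusted p = 0.262). Slc31a1 lies on chromosome 4 and was at -0.45 relative to it, against -0.82 without that correction. Relative to chromosome medians Slc23a2 did not pass (0.03) and Atox1 was lower (-0.11); with the GC and length trend removed Atp7a (-0.13) and Atox1 (-0.30) were lower. Atp7a was also lower without mutator replicate 1 (-0.09), and Atox1 without WT replicate 2 (-0.11).

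Among 8 genes of the HIF pathway and its oxygen sensors, 4 were higher and 4 lower. Hif1a, the oxygen-regulated subunit of HIF-1, rose 1.42-fold from 232 ± 4.83 to 330 ± 7.97 CPM, and the prolyl hydroxylase gene Egln3, itself a HIF target, 4.28-fold. Arnt, the constant subunit, fell 2.00-fold and Epas1, encoding HIF-2 alpha, 2.15-fold; Arnt lies on chromosome 3, whose genes were lower as a block, and relative to it was at -0.26 on the log2 scale. Of 12 HIF target genes outside collagen modification, 9 rose, Ankrd37 and Ero1a fell and Car9 did not pass (0.752 ± 0.108 and 0.700 ± 0.176 CPM, edgeR adjusted p = 0.612), with a median of 0.51. The pyruvate dehydrogenase kinase gene Pdk1 rose 4.10-fold, the adrenomedullin gene Adm 3.32-fold and Ndrg1 2.08-fold. In the TGF-beta list, 5 of 7 rose and Tgfb3 and Skil fell (median 0.24). The ligand gene Tgfb1 rose 1.60-fold, whereas Tgfb3 fell 1.76-fold. Relative to their chromosomes Ero1a (0.11) and Skil (0.09) were higher on the log2 scale. Ankrd37 had a log2 fold change of -0.26 (edgeR adjusted p = 0.0309). It did not pass with upper quartile scaling (-0.22), with DESeq2 (-0.27), without WT replicate 3 or 4 (-0.27 and -0.19) or without mutator replicate 2 or 3 (-0.25 and -0.21).

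**Figure D5:**
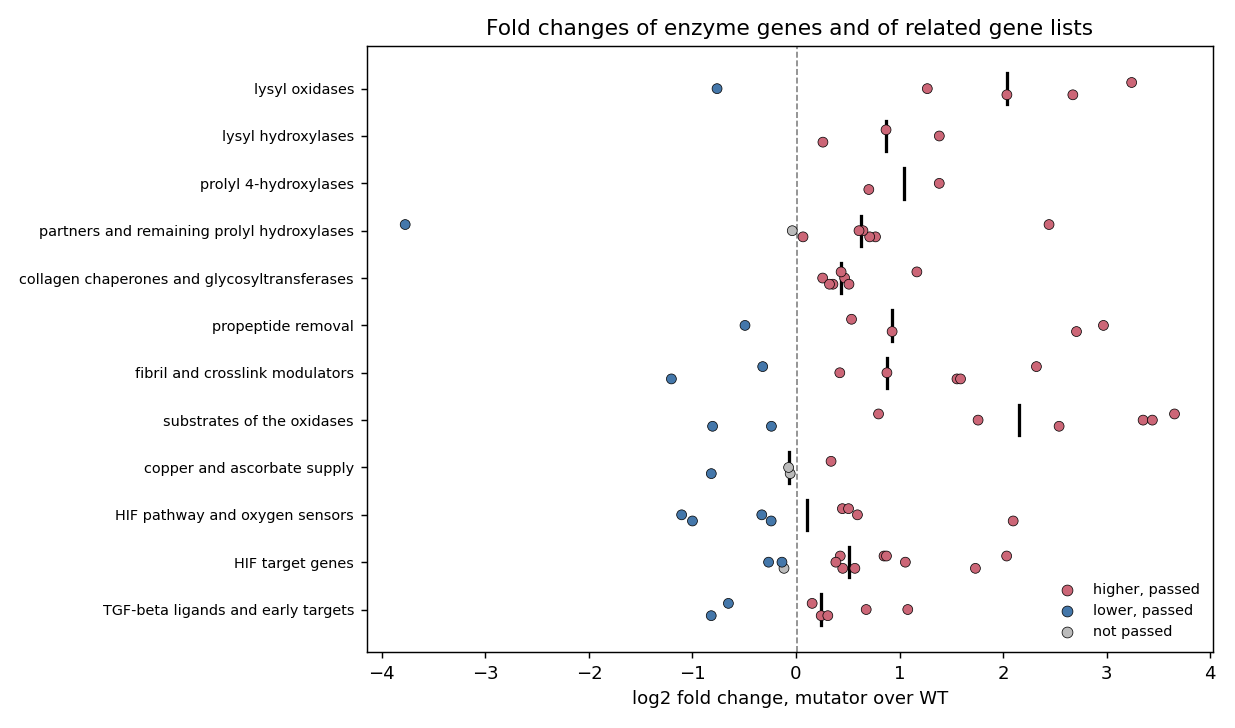
Log2 fold change of mutator over WT (x axis) for each tested gene of the enzyme families and of the 9 related gene lists. Points are genes, coloured by the edgeR call, black bars are list medians and the dashed line is the median of all genes tested, 0.01; the substrate list has a median of 2.15 and the copper and ascorbate list -0.06.

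The profile over the 9 libraries was compared between genes as the Euclidean distance of log2 CPM centred on the mean of each gene, over 8438 other genes of at least 10 CPM. Closest to Loxl2 was Vcan, encoding the matrix proteoglycan versican, at a distance of 0.12, followed by the cholesterol exporter gene Abca1 (0.19) and the kinase gene Stk39 (0.22). Vcan went from 15.9 to 150 CPM, a log2 fold change of 3.24. Closest to Loxl4 were Atp11a, a phospholipid flippase gene (0.08), Ezr, encoding ezrin (0.09), and Gstcd (0.09), with log2 fold changes of -0.76, -0.73 and -0.73; Gstcd lies on chromosome 3 and was at 0.01 relative to it, and Ezr at -0.46 relative to its chromosome. Such closeness describes these 2 lines and says nothing of shared function.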

How the data were processed

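The deposited table holds raw read counts per gene that the authors made; STAR 2.4.2a, HTSeq and the mm10 build are named in the submitters' processing notes. Which annotation and strand setting were used, and how reads with several positions were treated, is not given in the sources used here. Per the labels' protocols, libraries were strand-specific, made from 1 µg of RNA and read as 150 bp pairs. Columns were matched to samples by description, and 5 columns that match no sample were not used.

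Counts were filtered with filterByExpr, scaled by TMM and analysed in R 4.3.3 with edgeR 4.0.16 (quasi-likelihood F test, group as the only term, threshold 0.05 on the Benjamini-Hochberg adjusted p over 13345 genes). The fit was tested on simulated data. The standard error (SE) is the absolute log2 fold change over the root of F. CPM uses TMM-scaled library sizes. Each library was 1 sample, since counts differed beyond sampling noise in all 16 replicate pairs (2.49 to 12.4 chi-square per degree of freedom). Positions and merged exon lengths come from the basic set of GENCODE M21 (GRCm38), which matched 21582 of 29915 rows. P3h1, P3h2, Colgalt1, Ero1a and Adgre1 were read from rows under older symbols.

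The genes named are the 10 enzymes, the 3 largest changes past the threshold at a mean of at least 1 CPM in each list, small groups of exceptions, and Hif1a, P4hb, P4ha3, Col1a1, Col1a2 and Polg. Serpinh1, Colgalt1, Ppib, Fbln5, Bmp1, Eln, Htra2 and Znhit1 were added after their values were seen. One gene that this rule names is not reported here. The enzymes and lists were chosen with earlier results of these data known. Alternatives were RLE and upper quartile scaling, other low-count filters, DESeq2 1.42.0, a replicate block, offsets for chromosome medians and for a GC and length trend (mgcv 1.9.3), and each library left out. Lengths of the longest transcript, from the full annotation, were added after seeing the data.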

Additional observations from a re-analysis of the deposited data

How the results depend on the processing

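The direction of all 10 enzyme genes held under the 17 alternatives run for each, and their calls held with 1 exception: Plod1 was at 0.018 and did not pass with the GC and length trend removed (adjusted p = 0.583). That correction moved the median over all genes to a log2 fold change of -0.13 and the share of calls that were higher from 51.0% to 37.7%, with 3847 genes higher and 6344 lower against 5438 and 5227. The count of enzymes was 8 higher and 1 lower there, and 9 and 1 under all others. With that correction 1 enzyme was at least 2-fold lower, against 0 under the others; this count under alternatives was added after seeing the data. No label says that a replicate number marks a shared plate or day, and same-numbered libraries did not deviate together (r from -0.08 to 0.03 over genes). With the replicate block, 9 enzymes were higher and 1 lower, and 5336 and 5121 of all genes. Leaving out any 1 library kept Loxl1, the most variable, between 1.21 and 1.31.

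Small counts in the related lists moved as follows, and the cause was not tested. With the GC and length trend removed, 3 partners were lower, 3 copper and ascorbate genes were lower and 3 TGF-beta genes were higher. Relative to chromosome medians, 1 substrate, 2 copper and ascorbate genes, 1 HIF target and 1 TGF-beta gene were lower, and 0 copper and ascorbate genes were higher. With the stricter filter of 10 CPM in 4 libraries, fewer genes were tested, which left 3 modulators higher, 0 copper and ascorbate genes higher and 1 HIF target lower. With no filter, and with DESeq2, 2 propeptide genes were lower; 1 HIF target was lower with DESeq2 and with upper quartile scaling. With 1 library left out, 1 to 2 copper and ascorbate genes and 1 to 2 HIF targets were lower.

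Of 1043 values of 62 other named genes under the alternatives, 1013 kept direction and call, and 14 turned direction. With the GC and length trend removed, P4hb was at -0.17, Polg at -0.22, Htra2 at -0.12 and Znhit1 at -0.33. Relative to chromosome medians, Znhit1 was at -0.0187, P3h1 at 0.33, Ero1a at 0.11, Car9 at 0.25, Skil at 0.0867 and Gstcd at 0.00858. With upper quartile scaling P3h1 was at 0.00857. With 1 library left out, Znhit1 ranged from -0.0179 to 0.0316 and Car9 from -0.21 to 0.0206, and neither passed in the main analysis. The cause was not tested.

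Without division by length, shares in WT and mutator were 29.7% and 50.5% for Lox, 19.9% and 19.9% for Loxl1, 2.86% and 11.2% for Loxl2, 44.6% and 10.9% for Loxl4, and 7.58% for Loxl3 in mutator. They were 34.0% and 23.3% for Plod1, 16.4% and 24.6% for Plod2, and 49.6% and 52.1% for Plod3. They were 74.4% and 63.1% for P4ha1, 24.3% and 33.1% for P4ha2, and 1.34% and 3.80% for P4ha3. With the longest transcript as length, an alternative chosen after seeing the data, shares in WT and mutator were 29.7% and 20.1% for Plod1, 54.2% and 56.1% for Plod3, 68.4% and 55.8% for P4ha1, 29.5% and 38.6% for P4ha2 and 2.07% and 5.65% for P4ha3, and 16.1% for Plod2 in WT; those of the oxidases moved by less than their SD. These differences follow from the lengths used, which come from an annotation that may differ from that of the counts.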

Other observations

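Within the mutator line, the wells ordered the enzymes in different ways. Replicate 4 had the highest Loxl1 (347 CPM) and the lowest Plod2 (127 CPM) and P4ha1 (424 CPM) of the 5 wells. It also had the highest Col1a1 (3064 CPM), Col1a2 (2733 CPM) and Col5a3 (121 CPM), and the lowest Hif1a (321 CPM) and Pdk1 (148 CPM). Replicate 1 had the lowest Loxl1 (267 CPM), Col1a1 (2364 CPM), Col1a2 (2466 CPM) and Col5a3 (83.5 CPM). It had the highest P4ha1 (463 CPM), Plod2 (137 CPM) and Hif1a (339 CPM). Col3a1 was also highest in replicate 4 (184 CPM) but lowest in replicate 3 (153 CPM), with 168 CPM in replicate 1. Over all genes, mutator replicates 1 and 4 were the most unlike pair of wells (12.4 chi-square per degree of freedom). In WT, replicate 2 had the lowest Loxl1 (116 CPM), Col1a1 (729 CPM) and Col1a2 (193 CPM). These genes were chosen after their values were seen, and with 5 wells no correlation was computed. Lox ran from 746 to 786 CPM in mutator and followed neither order in full. It was highest in replicate 1, as were P4ha1, Plod2 and Hif1a. Its lowest value was in replicate 5, with 768 CPM in replicate 4.

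Several genes that are usual in fibroblasts were nearly without counts in both lines. Dcn had 9 counts over all WT libraries and 5 over all mutator libraries, Lum had 1 and 0, Eln 2 and 2, and Bmp1 none. Whether their reads were given to other rows, such as overlapping genes, was not tested. None of the 20 groups of libraries examined for the enzymes (10 genes in 2 lines) held a library that stood apart by Dixon's test.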
